A study of Mus musculus with 9 samples.

Results

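The cytosolic ribosomal proteins are described here in tumour-infiltrating cells and blood of mice that carried a hepatoma. Members were the array probes, controls left out, whose gene name was Rpl or Rps followed by a digit, or Rplp0, Rplp1, Rplp2 or Rpsa, with the Rps6k kinases left out. The rule found 137 of 41174 probes (82 gene names), 49 of the large and 33 of the small ribosomal subunit. RNA of 9 samples was measured on 9 two-colour Agilent arrays, with the sample in Cy5 and one common reference in Cy3. The animals were 3 Balb/c athymic females (mice 832, 833 and 834), a strain without a thymus and therefore nearly without T cells, and each gave 3 samples. The day 10 TIC samples were tumour tissue ground and enriched for tumour-infiltrating inflammatory cells (TIC fraction), from tumours grown for 10 days out of Hepa1-6 cells, a mouse hepatoma line put under the skin. The day 10 blood samples were whole blood of the same animals at that time, and the day 0 blood samples were whole blood taken before the cells were given. The reference came from the blood of a C57Bl/6 female that had no treatment. The groups were compared in the log2 ratio of Cy5 over Cy3, normalized within arrays, and in Cy5 alone, normalized between arrays. Blood and TIC RNA were extracted with different kits, so kit and tissue cannot be told apart in any comparison of the TIC fraction with blood.

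Each ribosome joins a small subunit, which reads the messenger RNA, to a large subunit, which links amino acids. Each subunit is a ribosomal RNA scaffold dressed with ribosomal proteins, most of them made from single genes and needed in equal numbers. Their messengers are among the most abundant of growing cells and begin with a run of pyrimidines, the 5′ terminal oligopyrimidine (TOP) tract, through which growth signals control their translation. Red cells on their way to maturity lose their ribosomes, and reticulocytes carry the last of them. The ribosomal protein genes also have many processed pseudogenes in the mouse genome, and the files do not show whether a probe also binds copies.

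The samples differed in how much of the array they lit. In Cy5 the scanner software called 48.2% to 55.1% of spots well above background on the TIC arrays, 14.2% to 21.0% on the day 10 blood arrays and 24.3% to 36.9% on the day 0 blood arrays. The Cy3 share lay between 40.2% and 50.4% on all 9. The 14 erythroid marker genes summed to 0.0246% to 0.0373% of the net Cy5 signal in the TIC fraction. They summed to 7.41% to 8.19% in blood of day 10 and 5.58% to 8.54% in blood of day 0. All 9 macrophage markers were above background on each TIC array, with 2 to 3 on the day 10 blood arrays and 5 on the day 0 blood arrays. The 11 hepatoma markers, such as albumin and alpha-fetoprotein, summed to 0.158% to 0.665% in the TIC fraction, with 9 to 11 of them above background. They summed to 0.00337% to 0.00636% in blood of day 10 and 0.00325% to 0.00437% in blood of day 0. The 9 proliferation markers summed to 0.0537% to 0.0971% in the TIC fraction, 0.00862% to 0.0134% in blood of day 10 and 0.00745% to 0.0114% in blood of day 0. The summed shares of other blood cell markers were lower in the TIC fraction. The 9 neutrophil markers summed to 0.144% to 0.243% there, 0.836% to 1.06% in blood of day 10 and 1.19% to 1.79% in blood of day 0. The 8 platelet markers summed to 0.0112% to 0.0347% in the TIC fraction, 0.442% to 0.833% in blood of day 10 and 0.138% to 0.716% in blood of day 0. The 10 B cell markers summed to 0.000914% to 0.00464% in the TIC fraction, 0.0152% to 0.0527% in blood of day 10 and 0.142% to 0.223% in blood of day 0. For the 10 T cell markers the sums were 0.000747% to 0.00139% in the TIC fraction. They were 0.00484% to 0.00578% in blood of day 10 and 0.00541% to 0.00651% in blood of day 0. By count, however, 7 to 10 T cell markers were above background on the TIC arrays. In blood the count was 1 to 5 on day 10 and 4 to 6 on day 0. The part of these cell types in the ribosomal protein results was not tested. Among the TIC arrays, mouse 833 stood apart. Across the ribosomal protein probes its log ratios correlated at 0.76 with mouse 832 and 0.77 with mouse 834, which correlated with each other at 0.97. Fewer cells of a type and less RNA per cell cannot be told apart in these bulk samples.

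Ribosomal protein probes held a far larger part of the sample signal in the tumour fraction than in blood. Summed over all member probes, without any filter on dim ones, they took 27.7%, 20.5% and 28.0% of the net Cy5 signal on the TIC arrays of mice 832, 833 and 834. In day 10 blood of the same mice they took 3.56%, 4.85% and 4.34%, and in day 0 blood 6.12%, 8.98% and 7.59%. The 3 groups did not overlap, and within each mouse the TIC value was highest and the day 10 blood value lowest. The TIC mean was 5.97 times that of day 10 blood and 3.36 times that of day 0 blood, and the day 10 blood mean was 0.562 times that of day 0 blood. Each of these comparisons reached p = 0.1 in a two-sided exact permutation test, the smallest value that 3 arrays against 3 allow. Both subunits showed the same order. Large subunit probes took 13.8% ± 2.56 (SD, n = 3) in the TIC fraction, 2.59% ± 0.628 in day 10 blood and 4.19% ± 0.390 in day 0 blood. Small subunit probes took 11.6% ± 1.68 in the TIC fraction, 1.66% ± 0.138 in day 10 blood and 3.38% ± 1.05 in day 0 blood. Among the 100 brightest Cy5 probes of each array, 56, 50 and 55 were ribosomal protein probes in the TIC fraction, against 5, 6 and 5 in day 10 blood and 10, 18 and 18 in day 0 blood. Globin probes moved the other way and took 0.0812% to 0.147% of the Cy5 signal on the TIC arrays, 12.4% to 14.1% in blood of day 10 and 10.4% to 13.98% in blood of day 0.

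**Figure D1:**
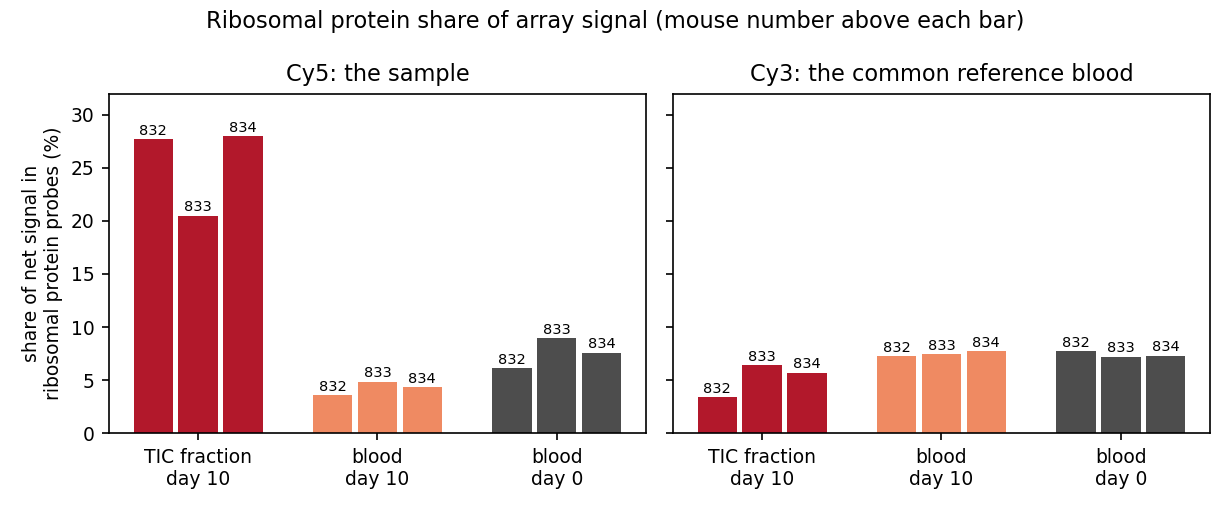
Share of the net signal of each array that came from the 137 ribosomal protein probes, in percent, in Cy5 (sample, left panel) and Cy3 (common reference, right panel); each bar is 1 array with its mouse number. The Cy5 share is 20.5% to 28.0% on the TIC arrays and under 9% on every blood array, while the Cy3 share is 3.36% to 6.38% on the TIC arrays and 7.22% to 7.73% on the blood arrays.

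The reference channel was not quite level either. Its RNA was the same on all 9 arrays, yet the ribosomal protein probes took 3.36%, 6.38% and 5.71% of the net Cy3 signal on the TIC arrays of mice 832, 833 and 834. On the day 10 blood arrays they took 7.24%, 7.42% and 7.72%, and on the day 0 blood arrays 7.73%, 7.22% and 7.31%. The TIC arrays lay below all blood arrays (p = 0.1 in the exact permutation test against each blood group), and a ratio to Cy3 carries this difference. Globin probes took 20.4% to 22.5% of the Cy3 signal on the TIC arrays, 10.7% to 14.6% on the arrays of day 10 blood and 9.99% to 16.9% on those of day 0 blood. The cause was not tested.

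After normalization the same order was seen probe by probe. Of the 137 probes, 96 entered the planned test and 31 more could be tested only when spots that the scanner software had marked for a non-uniform local background were kept. The marked member spots lay on the TIC arrays of mice 832 (25 spots) and 834 (9 spots). Their median Cy5 background of 48 and 47.5 intensity units was close to the array medians of 46.5 and 46. Of the other 10 probes, 6 were too dim and 4, among them the probe of Rpl41, had an outlier spot on an array. With the marked spots kept, the median log2 ratio of the 127 probes was 1.0, 0.62 and 0.85 on the TIC arrays of mice 832, 833 and 834. It was -0.70, -0.36 and -0.59 in day 10 blood and -0.34, 0.17 and -0.02 in day 0 blood. The median quantile-normalized log2 Cy5 intensity was 12.39, 12.33 and 12.43 in the TIC fraction, 9.80, 10.14 and 9.78 in day 10 blood and 10.52, 11.03 and 10.80 in day 0 blood.

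**Figure D2:**
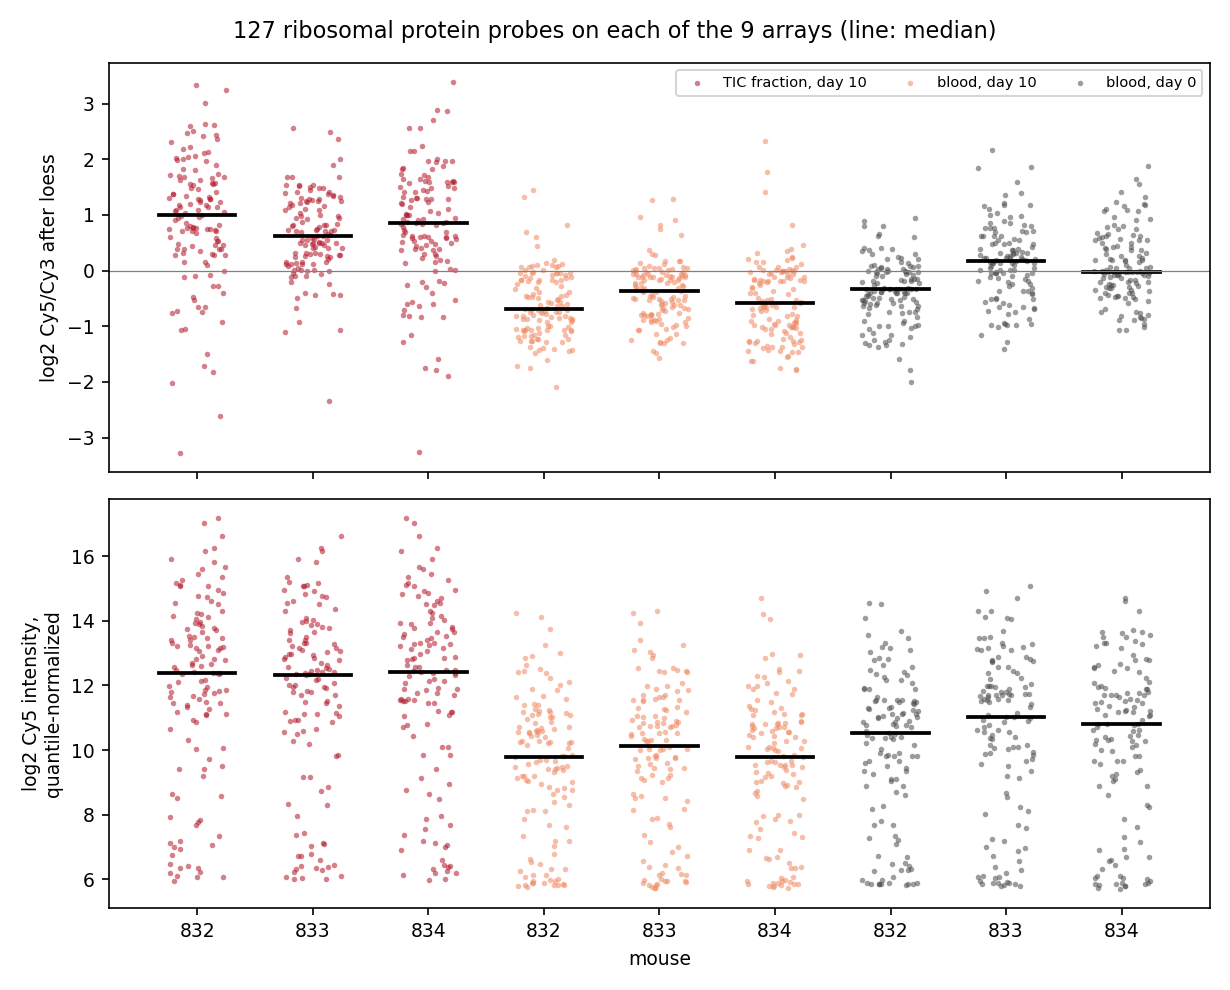
Log2 Cy5/Cy3 (top) and log2 Cy5 intensity after quantile normalization (bottom) of the 127 ribosomal protein probes tested with marked spots kept, by mouse and group; each point is a probe and the lines are medians. The TIC medians, 0.62 to 1.0 in the ratio and 12.33 to 12.43 in Cy5, lie above those of all blood arrays.

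The TIC fraction was set against day 10 blood to compare cells in the tumour with those circulating in the same mice on the same day. In the log ratio 76 of the 96 tested probes rose in the TIC fraction and 3 fell (limma, Benjamini-Hochberg adjusted over 20008 probes), or 5 without the TIC array of mouse 833. Over all tested probes 35.8% rose and 30% fell, so that calls were common on the whole array. The median difference of the members was 1.40 on the log2 scale, and that of all probes was 0.12. In Cy5 alone 86 of the 96 rose and 2 fell, with a median difference of 2.44, where 33.5% of all probes rose and 20% fell with a median of 0.21. The 2 readouts called 72 probes higher together and 2 lower together. These joint calls were counted among the members only, so no share of all probes stands beside them. Of the 96 probes, 13 entered the test through the TIC arrays only, so that a higher value there was built into their selection. Among the 71 probes above background on all 9 arrays, 56 rose and 2 fell in the log ratio, where 17.4% of such probes of any gene rose and 58.6% fell. In Cy5 alone 69 of them rose and 1 fell, beside 19.8% and 54.6% of all such probes. With marked spots kept, 95 of 127 probes rose and 6 fell in the log ratio (35.8% and 29.9% of all probes), and 117 rose and 2 fell in Cy5 (33.6% and 20%). The large subunit had 46 rises and 2 falls among 56 tested probes and the small subunit 30 rises and 1 fall among 40. Their median differences, 1.44 and 1.35, were nearly equal.

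Among the 96 probes of the planned test, the largest rises with one direction in all 3 mice were those of Rpl22l1, Rpl30, Rpl36a and Rpl36. Rpl22l1, a paralog of the large subunit protein Rpl22 with an overlapping role, had log2 ratios of 3.32, 2.54 and 3.37 in the TIC fraction of mice 832, 833 and 834. In day 10 blood they were -0.70, -0.46 and -0.92, and in day 0 blood 0.13, 0.99 and 0.91. No value of one group reached into another. Rpl22l1 was 3.77 ± 0.29 (SE of the limma fit, n = 3 each) higher in the TIC fraction than in day 10 blood (adjusted p = 1.03e-05) and 3.82 higher in Cy5 alone. Its probe lies on chromosome 3 at 28998348 to 28998407 of mouse build mm8, as the files give it. Rpl30, a large subunit protein that binds the RNA of its own gene in yeast, had log2 ratios of 3.01, 2.34 and 2.85 in the TIC fraction and -0.63, -0.18 and -0.90 in day 10 blood, a rise of 3.30 ± 0.35. The highest of 3 Rpl36a probes had log2 ratios of 2.62, 1.98 and 2.68 in the TIC fraction against -0.76, -0.22 and -1.09 in day 10 blood. It rose by 3.11 ± 0.30, and the lowest of the 3 differed by 2.30 with marked spots kept. For Rpl36 the rise was 2.93 ± 0.32. For these 4 probes the largest adjusted p was 7.54e-05. One probe of the small subunit protein Rps18, tested only with marked spots kept, rose by 3.26 ± 0.32, more than Rpl36a and Rpl36.

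Proteins with well-known places in the ribosome were described next, whether or not they moved. In the small subunit, Rpsa, which also serves as a laminin receptor, had log2 ratios of 1.20, 1.27 and 1.08 in the TIC fraction and -1.38, -1.48 and -1.47 in day 10 blood on its brighter probe. The difference was 2.63 ± 0.22 (adjusted p = 1.55e-05). Rps6, the substrate of the S6 kinases, had log2 ratios of 1.0, 1.19 and 1.27 in the TIC fraction against -1.71, -1.05 and -1.26 in day 10 blood, and rose by 2.50 ± 0.26. Rps19, the gene most often mutated in Diamond-Blackfan anaemia, rose on both tested probes, by 1.99 ± 0.26 and 1.55 ± 0.31. Rps27a, which is made as a fusion with ubiquitin, rose by 2.60 ± 0.38. In the large subunit, Rpl3, which reaches towards the peptidyl transferase centre, rose by 0.92 ± 0.27 (adjusted p = 0.0153). Rpl4, which lines the exit tunnel of the growing chain, rose by 1.22 ± 0.15 (adjusted p = 0.000171). Rpl8, beside the peptidyl transferase centre, differed by 0.83 ± 0.36 in the log ratio (adjusted p = 0.0728), while its Cy5 rose by 2.80 (adjusted p = 4.43e-05). With mouse as a block the log ratio of Rpl8 passed the test at the same size. Rpl5, which carries 5S ribosomal RNA and binds Mdm2 together with Rpl11, rose by 1.12 ± 0.23. Its partner Rpl11 differed by -0.12 ± 0.31 on the brighter probe (adjusted p = 0.756), whose Cy5 rose by 2.55. A second Rpl11 probe, above background on no day 10 blood array, rose by 0.72 ± 0.09 (adjusted p = 0.000141) and was at least 1.56-fold higher. Rplp0, the base of the ribosomal stalk, had log2 ratios of -2.61, -0.52 and -1.80 in the TIC fraction and -0.74, -0.71 and -0.54 in day 10 blood. The groups overlapped through mouse 833, and the difference passed the test in neither readout (-0.98 ± 0.44, adjusted p = 0.0799, and -0.23 in Cy5, adjusted p = 0.574).

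A few members, Rplp1 among them, moved apart in the 2 readouts. Rplp1 and Rplp2, the acidic proteins that form the stalk on Rplp0 and recruit elongation factors, were tested only with marked spots kept. Rplp1 (probe on chromosome 9 at 61711300 to 61711359, mm8) had background-corrected Cy5 intensities of 466944, 115100 and 273244 in the TIC fraction of mice 832, 833 and 834. They were 5534, 7270 and 6497 in day 10 blood and 25922, 18261 and 8454 in day 0 blood. Its Cy3 intensity, from the common reference, was 8506, 41729 and 19911 on the TIC arrays, 55304, 55120 and 52460 on the day 10 blood arrays and 56557, 56425 and 48306 on the day 0 blood arrays. Thus Cy5 was highest and Cy3 lowest on the TIC arrays, and the unnormalized ratio was far higher there. After loess, which fits the ratio as a curve over intensity, the log2 ratio of Rplp1 was 0.78, 0.73 and 0.51 in the TIC fraction and 1.44, 1.27 and 2.33 in day 10 blood. It fell by 1.01 on the log2 scale (SE 0.31, adjusted p = 0.0186), while its quantile-normalized Cy5 rose by 1.93 (adjusted p = 0.000148). Rplp2 fell by 1.45 in the log ratio and rose by 1.27 in Cy5. Rps16, a small subunit protein, fell by 1.21 and rose by 2.99. Rpl28, which was in the planned test, had log2 ratios of -1.72, -1.10 and -1.62 in the TIC fraction and -0.87, -0.65 and -0.21 in day 10 blood. It fell by 0.90 in the log ratio (SE 0.23, adjusted p = 0.00811), and its Cy5 rose by 0.57 (adjusted p = 0.0187). These were the 4 probes called in opposite directions, all lower in the log ratio and higher in Cy5, out of 127. Opposite calls were counted among the members only, so they cannot be called particular to them. For these 4 probes the direction in the tumour fraction against day 10 blood therefore rests on the readout. For Rplp1 and Rpl28 it also rests on the loess step of the ratio. With median centring in place of loess, the log ratio of Rpl28 was 5.12 higher in the TIC fraction.

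**Figure D3:**
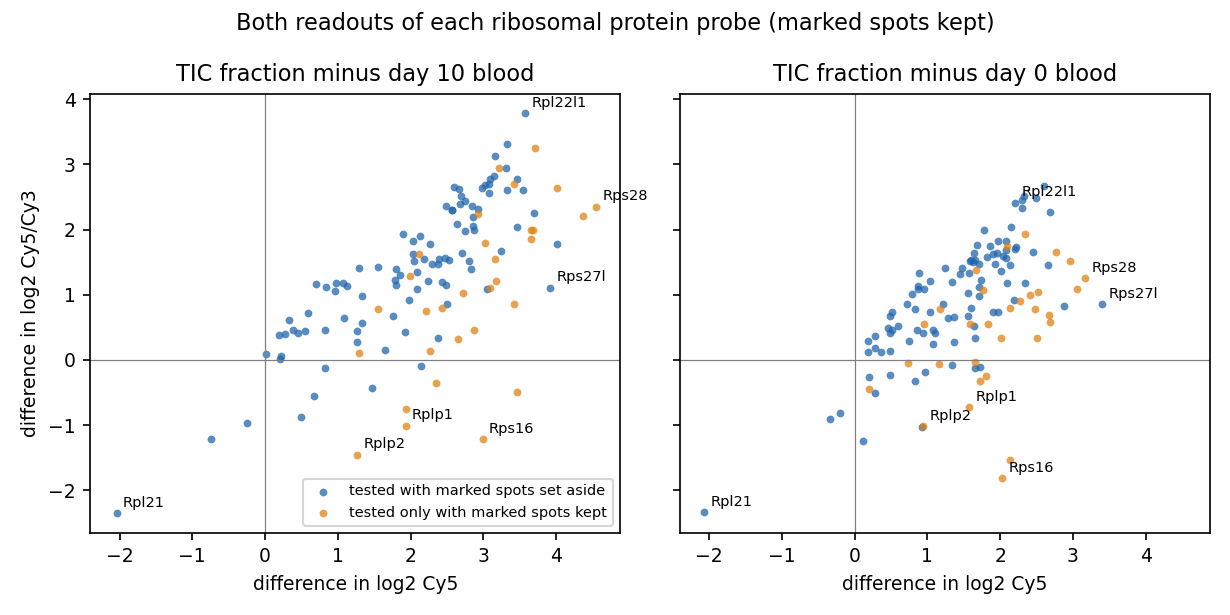
Difference in log2 Cy5/Cy3 (vertical) against difference in log2 Cy5 (horizontal) of 127 ribosomal protein probes, for the TIC fraction minus day 10 blood and minus day 0 blood; blue probes were in the planned test and orange ones were tested only with marked spots kept. Most probes lie in the upper right, and Rplp1, Rplp2 and Rps16 lie at the lower right of both panels.

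Few members were lower in the TIC fraction by both readouts. One probe of Rpl21 had log2 ratios of -3.28, -2.34 and -3.27 in the TIC fraction, -0.47, -0.57 and -0.79 in day 10 blood and -0.50, -0.97 and -0.41 in day 0 blood. It fell by 2.35 in the log ratio (SE 0.26, adjusted p = 8.59e-05) and by 2.03 in Cy5 (adjusted p = 2.17e-05), although with median centring its log ratio was 2.81 higher. The second probe named Rpl21 lay close to background, with a difference of 0.05 (adjusted p = 0.611). Rps4x, the X-linked small subunit protein, had one dim probe that fell by 1.21 (SE 0.16) and a bright one that rose by 1.06 ± 0.39 (adjusted p = 0.0406) and by 3.72 in Cy5. That rise lost its call when any one of 5 of the 6 arrays compared was left out, the exception being the TIC array of mouse 834.

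Members with several probes showed how far a value depended on the probe. With marked spots kept, 39 genes had more than 1 tested probe, and for TIC fraction against day 10 blood their probes spanned a median of 0.82 on the log2 scale. The span was over 1 for 15 genes, and 1 gene, Rps4x, had probes called in opposite directions. The dimmer probe of a gene could give a much smaller difference. Rpl22l1 differed by 3.77 on the bright probe and by 0.39 on one that was above background in no blood sample. The second probe of Rpsa, also above background in no blood sample, differed by 0.61. Both dim probes entered the test through the TIC arrays only, so that a higher value there was built into their selection. For probes near background in a blood group the fitted value is no measure of size, and only a bound can be given. Rpl31, another Diamond-Blackfan anaemia gene, was above background on all TIC arrays and on no day 10 blood array with either probe, and was at least 5.73-fold and 5.92-fold higher in the TIC fraction (bounds from single-channel values, open to dye bias). The fitted differences were 1.47 and 2.30.

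**Figure D4:**
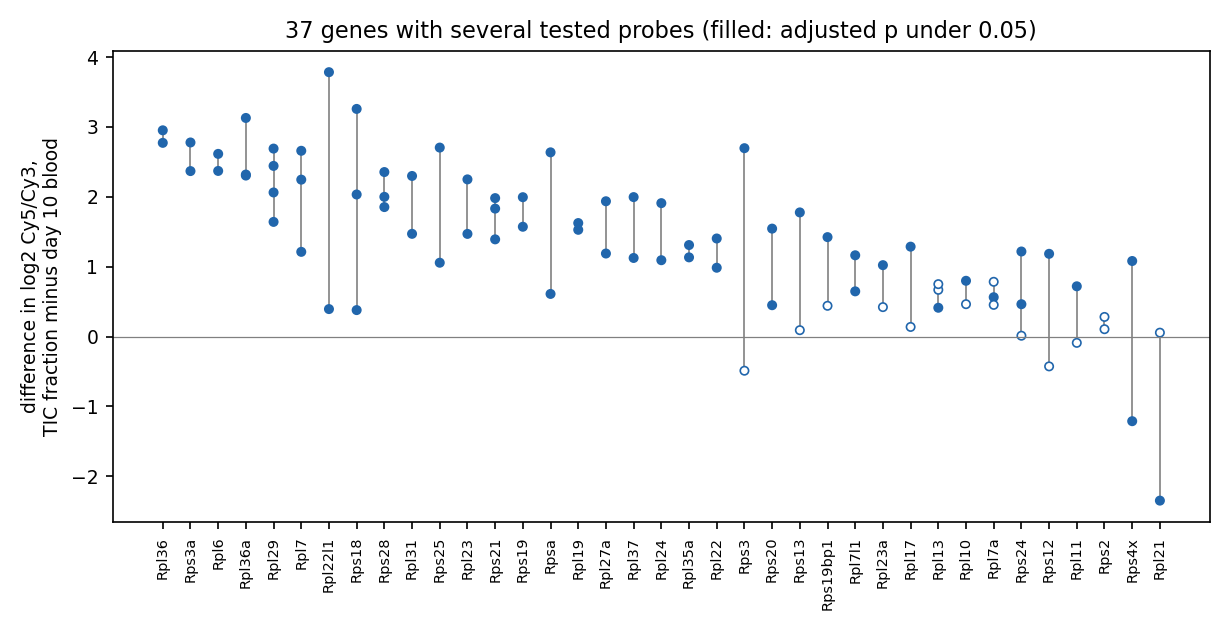
Difference in log2 Cy5/Cy3 between the TIC fraction and day 10 blood for 37 of the 39 ribosomal protein genes with several tested probes, marked spots kept, in the order of the genes' medians; each point is a probe, filled where the adjusted p was under 0.05, and grey lines join probes of one gene. The median span over all 39 genes is 0.82, and Rps4x has called probes on both sides of 0.

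The promoters of the members were read for short motifs. RefSeq promoter sequences of mouse build GRCm38.p6, from 250 bases before to 50 after the start of the gene, were found for 62 of the 82 gene names, with 73 promoters. The motif CTTTCC, a piece of many TOP tracts, searched on the gene's strand, stood in 38.4% of the members' promoters and in 14.1% of all 32851 promoters of the table. CCGGAAG, the core letters bound by ETS factors, searched on both strands, stood in 34.2% and 8.86%. TATAAA, a form of the TATA box searched on the gene's strand, stood in 8.22% and 8.32%. These shares were not tested, and a match is not evidence of binding. The 80 bases from 60 before to 20 after the annotated start are shown for 4 genes, chosen after their values were seen, with these motifs in capitals. Rpl22l1 had the largest rise, Rpl31 was measured in the tumour fraction but not in day 10 blood, Rpl11 had readouts that differed, and Rpl28 was called in opposite directions.
Rpl22l1 (GRCm38.p6, chr3:28805448-28805527, plus strand): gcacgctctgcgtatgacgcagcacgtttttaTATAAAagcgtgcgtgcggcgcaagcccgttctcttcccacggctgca
Rpl31 (GRCm38.p6, chr1:39367791-39367870, plus strand): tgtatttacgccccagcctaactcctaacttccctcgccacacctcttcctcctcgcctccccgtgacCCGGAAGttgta
Rpl11 (GRCm38.p6, chr4:136053374-136053453, minus strand): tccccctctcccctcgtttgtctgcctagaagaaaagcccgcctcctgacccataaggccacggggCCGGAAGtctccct
Rpl28 (GRCm38.p6, chr7:4792905-4792984, plus strand): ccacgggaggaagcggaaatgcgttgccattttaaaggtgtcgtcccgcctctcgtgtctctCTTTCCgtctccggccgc

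The slides bear on the comparison with day 10 blood. The 9 arrays lay on 3 slides, which were also the scans, and the TIC and day 10 blood arrays shared none, so that no within-slide value exists. Slide 1 held only the TIC array of mouse 832, so that a slide block leaves the TIC fraction to mice 833 and 834. With slide as a block, which links these groups through day 0 blood, 43 of 96 probes rose in the log ratio. In Cy5 62 rose, where 9.45% (log ratio) and 7.28% (Cy5) of all probes rose. With mouse and slide as blocks together 9 rose in the log ratio, where 1.22% of all probes rose. The median difference of the members was 1.44 with the slide block and 1.25 with both. Rpl22l1, Rpl30, Rpl36a and Rpl36 all lost their call with both blocks, at differences of 2.02 to 3.62. Both blocks together leave few residual degrees of freedom, which weakens the test.

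The TIC fraction was also set against day 0 blood, that is, against the blood of the same mice before the tumour cells. In the log ratio 65 of 96 probes rose and 5 fell, with a median difference of 0.98, where 32.9% of all probes rose and 30.7% fell with a median of 0.07. In Cy5 alone 84 rose and 1 fell, with a median of 1.69, beside 26.1% and 19.5% of all probes and a median of 0.13. Among the 71 probes above background on all 9 arrays, 44 rose and 4 fell in the log ratio, beside 15.6% and 59.1% of all such probes, and 65 rose and 1 fell in Cy5, beside 18% and 51.3%. With marked spots kept, 79 of 127 probes rose and 7 fell in the log ratio (32.9% and 30.6% of all probes), and 110 rose and 1 fell in Cy5 (26.2% and 19.5%). This comparison and the last share the TIC arrays. On slide 2, which held 2 TIC and 2 day 0 blood arrays, the median difference was 0.91 in the log ratio and 1.59 in Cy5. The largest rises were those of Rpl29, Rpl7, Rpl31 and Rpl22l1. Rpl29, a small basic protein of the large subunit, rose by 2.67 ± 0.39 and 2.48 ± 0.29 on the highest 2 of its 4 tested probes. The highest had log2 ratios of 2.32, 0.82 and 2.55 in the TIC fraction of mice 832, 833 and 834 and -0.98, -0.56 and -0.77 in day 0 blood. Rpl7 had 1.96, 0.77 and 1.99 in the TIC fraction against -1.33, -0.66 and -0.82 in day 0 blood and rose by 2.51 ± 0.32. In each of these the TIC value of mouse 833 was the lowest of the 3 and still above every blood value. Rpl31 rose by 2.46 ± 0.30 and Rpl22l1 by 2.40 ± 0.29. Each of these genes had several probes. With marked spots kept, the lowest probes of Rpl29, Rpl7, Rpl31 and Rpl22l1 differed by 1.18, 0.78, 1.36 and 0.37.

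The 5 falls against day 0 blood included probes of Rpl21, Rpl11, Rps4x and Rps9. There were 3 falls without day 0 blood of mouse 833 or without the TIC array of mouse 834, and 2 without day 0 blood of mouse 834. Rpl21 fell by 2.34 (SE 0.26) and by 2.08 in Cy5. Rpl11 had log2 ratios of -0.40, 0.12 and -0.75 in the TIC fraction and 0.08, 0.98 and 1.09 in day 0 blood. Its ranges overlapped only through day 0 blood of mouse 832. It fell by 1.06 in the log ratio (SE 0.31, adjusted p = 0.0167) and rose by 1.28 in Cy5 (adjusted p = 0.00387). The second, dimmer Rpl11 probe rose by 0.67 in the log ratio (adjusted p = 0.000253). With marked spots kept, 2 genes had probes called in opposite directions against day 0 blood, Rpl11 and Rps3, and the probes of Rps3 differed by -1.53 and 2.04. Rps9, which lies near the decoding region, was likewise called lower in the log ratio (a fall by 0.53) and higher in Cy5 (0.42), but with marked spots kept its Cy5 difference was 0.28 (adjusted p = 0.108). The log ratio calls of Rpl11 and Rps9 were each lost when single arrays were left out, among them day 0 blood of mouse 834 for both, and with median centring the log ratios of Rpl21, Rpl11 and Rps9 were higher in the TIC fraction. Several core proteins passed the test in Cy5 only: Rpl5 differed by 0.26 in the log ratio (adjusted p = 0.358) and rose by 1.72 in Cy5, and Rpl8 differed by -0.10 (adjusted p = 0.819) and rose by 1.63.

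Between the bloods the ribosomal protein probes were lower on day 10, by an amount near the limit of the test. In the log ratio none of the 96 probes was called by limma, where 0.04% of all probes rose and 0.02% fell. At an unadjusted p under 0.05, 37 were lower and 2 higher, beside 5.59% and 7.98% of all probes, and the smallest adjusted p was 0.0682. Their median difference was -0.40 and that of all probes -0.02. In Cy5 alone 21 probes fell and none rose, with a median of -0.62, where 2.28% of all probes fell and 1.74% rose and the median was -0.06. With marked spots kept, none of 127 was called in the log ratio (0.0398% of all probes rose and 0.0199% fell), and 37 fell and none rose in Cy5 (2.49% and 1.9% of all probes). Among the 71 probes above background on all 9 arrays, 9 fell in the log ratio and 32 in Cy5, and none rose. Of all such probes 1.16% fell and 2.67% rose in the log ratio, and 4.41% fell and 7.03% rose in Cy5. The direction of the members' median was the same in each mouse. The median difference between the bloods of mice 832, 833 and 834 was -0.21, -0.51 and -0.45 in the log ratio and -0.48, -0.69 and -0.64 in Cy5, and 27, 21 and 24 of the 96 probes were positive in the log ratio.

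The 21 calls in Cy5 rested on single arrays and on the scaling. None was left without the day 0 blood array of mouse 833, that of mouse 834 or the day 10 blood array of mouse 834, and 2 were left without the day 10 blood array of mouse 832. The shares of all probes called without these arrays are not given here, so the losses cannot be called particular to the members. No member probe was called with the 75th percentile scaling, without scaling, with Agilent's signals or with slide as a block. With the 75th percentile scaling and without scaling, no probe of any gene was called lower either. Slide 3 held all day 10 blood arrays and the day 0 blood array of mouse 834, and on it the median difference was -0.47 in the log ratio and -0.59 in Cy5. Among the probes that fell in Cy5 were 1 each of Rpl11 (-1.27, adjusted p = 0.0352), Rpsa (-1.34, adjusted p = 0.0287), Rpl22l1 (-1.38, adjusted p = 0.0259) and Rps13 (-1.56, adjusted p = 0.0310), a small subunit protein of the subunit interface. The second, dimmer probes of Rpl11, Rpsa, Rpl22l1 and Rps13 were not called in Cy5, with differences of -0.098, 0.19, -0.0023 and 0.27. On its brighter probe Rps13 is described next. Rps13 had log2 ratios of -0.72, -0.26 and -1.43 in day 10 blood and 0.39, 0.87 and 0.83 in day 0 blood, without overlap, and differed by -1.50 ± 0.29 in the log ratio (adjusted p = 0.0844). Rps6 had -1.71, -1.05 and -1.26 in day 10 blood against -0.58, 0.23 and -0.69 in day 0 blood, also without overlap, and differed by -0.99 ± 0.26 (adjusted p = 0.16). Rpl4, by contrast, differed by 0.10 ± 0.15 (adjusted p = 0.918). Markers of blood cells also moved between these bloods. At 1 probe a gene, 6 of 12 tested erythroid markers rose in Cy5 and none fell, with a median difference of 0.99, and their median in the log ratio was 1.28 with no call. Of 10 B cell markers 7 fell in Cy5 and none rose, with a median of -1.59. Of 7 platelet markers 1 rose in Cy5, with a median of 0.39, and no neutrophil or T cell marker was called, with medians of -0.27 and 0.28. Their part in the ribosomal protein difference was not tested.

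**Figure D5:**
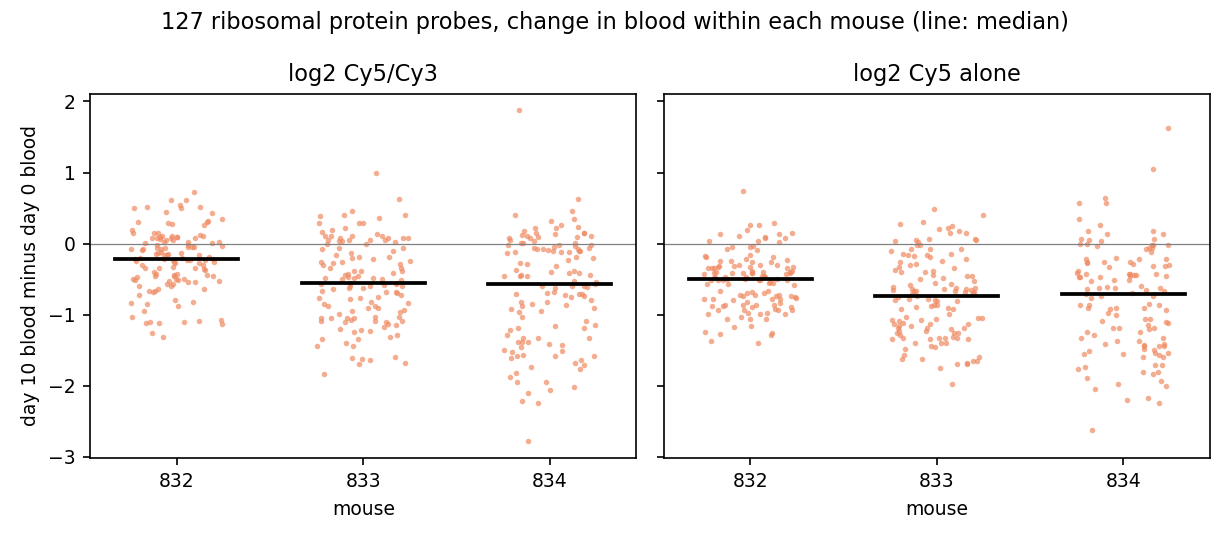
Difference between day 10 and day 0 blood of each mouse for 127 ribosomal protein probes, marked spots kept, in log2 Cy5/Cy3 (left) and quantile-normalized log2 Cy5 (right); points are probes and lines are medians. The median lies below 0 in each of the 3 mice in both readouts.

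Several names met the rule without being core ribosomal proteins. The paralogs Rpl36al, Rps27l and Rpl7l1 rose against day 10 blood with Rpl22l1. Rpl36al rose by 1.52 ± 0.16 in the log ratio and 2.83 in Cy5, and Rps27l, a p53 target that resembles Rps27, by 1.1 ± 0.23 and 3.99. Rpl7l1 was above background on no day 10 blood array with either probe and was at least 1.72-fold and 2.25-fold higher in the TIC fraction. Rpl3l, the form of Rpl3 made in striated muscle, was below the filter, above background on 1 TIC array and on no blood array. Rps19bp1 is a protein that binds Rps19. It rose by 1.42 ± 0.22 on its brighter probe, which differed by -0.01 between the bloods (adjusted p = 0.998). Its other probe differed by 0.44 against day 10 blood in the log ratio (adjusted p = 0.0688) and rose by 1.27 in Cy5.

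Genes that work beside the ribosomal proteins, taken from lists at 1 probe a gene, were mostly higher in the tumour fraction too, with the exceptions given. Of 75 mitochondrial ribosomal proteins, which build the separate ribosome of that organelle, 71 rose and 2 fell in the log ratio against day 10 blood, with a median difference of 1.57. The cytosolic members, counted the same way, had 49 rises and 2 falls among 62 genes, with a median of 1.46. Among 34 ribosome assembly factors 27 rose and none fell, with a median of 1.25; the snoRNA-bound methyltransferase fibrillarin (Fbl) rose by 2.82 ± 0.22. Among 17 other genes with TOP messengers 9 rose and 2 fell, with a median of 1.04. Npm1, a nucleolar chaperone of ribosome assembly, rose by 4.49 ± 0.34, and Tpt1, the translationally controlled tumour protein, fell by 2.95 (SE 0.17) in the log ratio and by 1.02 in Cy5. Of 12 tested Diamond-Blackfan anaemia genes, themselves members, 10 rose and none fell. Over all genes counted this way the median difference was 0.07, with 4950 rises and 4750 falls among 14262. Ribosomal proteins outside the name rule did not follow in the log ratio. Of 2 tested genes 1 fell and none rose, with a median of -1.41. In Cy5 alone 1 of the 2 rose and 1 fell, with a median of 0.79, where 34.8% of all genes rose and 23.3% fell. Rack1, a small subunit scaffold, differed by 0.83 in the log ratio (adjusted p = 0.177). Of 5 probes of this list tested with marked spots kept, 3 fell and 1 rose. Against day 0 blood 4 of the 12 Diamond-Blackfan anaemia genes rose in the log ratio and 1 fell, where 32.1% of all genes rose and 33.9% fell. In Cy5 alone all 12 rose, with a median of 1.90, where 26.1% of all probes rose. Between the bloods none of these lists had a called gene in the log ratio. Their median differences there were -0.12 for the mitochondrial ribosomal proteins, -0.06 for the assembly factors, -0.31 for the other TOP genes, -0.11 for the ribosomal proteins outside the name rule, -0.89 for the Diamond-Blackfan anaemia genes and -0.56 for the cytosolic members.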

How the data were processed

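The authors deposited scanner tables of 9 arrays with spot and background intensity per channel, made with Agilent Feature Extraction 10.5.1.1 per the file headers (9.1.3.1 per the submitters' processing notes), and log10 ratios (Cy5 over Cy3), which the deposited value table repeats. Dyes were not swapped. From 45018 spots per array (no spot saturated), intensity was corrected by normexp (offset 50). Spots marked for non-uniform background were set aside. Ratios were loess-normalized within arrays with outlier spots at weight 0, and Cy5 alone was quantile-normalized. Spots of one probe were averaged, and probes that Cy5 showed well above background on 3 or more arrays were tested with limma 3.58.1 in R 4.3.3, with group as the only term (6 residual degrees of freedom) and a Benjamini-Hochberg threshold of 0.05. The number of arrays limits the precision.

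Mouse numbers pair samples by animal. Deviations from the group means correlated at 0.19 to 0.32 between the bloods of a mouse and at -0.06 to 0.06 between its TIC fraction and blood. Genes were named by a rule on size, on probes that disagree and on known roles; a few members are counted but not reported by name here. The members, lists and rules were chosen with earlier results of these data known. The alternatives tried were background, loess, scaling, filter, block and left-out arrays. The probe test was tested on simulated data. Probe positions are those of the files (mm8).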

Additional observations from a re-analysis of the deposited data

How the results depend on the processing

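Most results kept their direction; the sizes depended on the normalization. With median centring in place of loess the members' median log ratio difference was 6.79 (TIC fraction against day 10 blood), 5.22 (TIC fraction against day 0 blood) and -1.44 (day 10 against day 0 blood), with no probe lower in the TIC fraction (0 and 0 probes, beside 2.80% and 4.99% of all), while the median of all probes moved to 1.17, 1.0 and -0.14. It reversed Rpl21 (2.81 and 1.66 against day 10 and day 0 blood), Rpl28 (5.12), Rpl11 (6.13 and 4.1), Rplp0 (4.58 and 3.43), Rps9 (4.28) and Rpl8 (4.84). Agilent's log ratios gave medians of 2.35 and -0.81 (TIC fraction against day 10 blood, and the bloods). With the members at weight 0 in loess, the first median was 1.44 and 77 probes rose. In the planned fit 76 rose, beside 35.8% of all probes. Cy5 medians, in the order of the 3 comparisons, were 5.79, 4.32 and -1.36 with 75th percentile scaling (6, 4 and 0 probes lower, and 36.9%, 36.5% and 0% of all), 7.32, 5.66 and -1.56 without scaling (0, 0 and 0 lower, and 0.975%, 2.22% and 0% of all). Agilent's Cy5 signals gave 2 probes lower against day 0 blood (26.0% of all) and, between the bloods, a median of -0.49 with 0 lower (0.0199%). The causes were not tested.

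Against day 10 blood the log ratio gave 49 rises with 1 probe a gene (62 genes; 34.4% of all genes rose), 43 with a slide block (9.45% of all probes) and 9 with mouse and slide blocks (1.22%; 0 falls); falls were 6 of 127 with all or marked spots kept (27.3% and 29.9% of all probes), also with the mouse block (29.7%), 3 to 5 with single arrays left out and 8 with marked spots kept and without TIC of mouse 833 (33.6%). In Cy5, 1 probe was lower with a slide block (8.46% of all) and 1 with the 9-array filter (54.6%). Against day 0 blood the log ratio gave 39 rises and 3 falls with 1 probe a gene (31.7% and 33.6% of all genes) and 29 rises and 2 falls with both blocks (9.01% and 18.1% of all probes). Falls were 2 with a slide block (25.4%), 2 to 7 with single arrays left out and 12 with marked spots kept and without TIC of mouse 833 (34.6%); in Cy5 they were 1 to 2. Between the bloods 8 probes fell in the log ratio with Agilent's values (3.46% of all probes), 8 with an offset of 10 (0.45%), 3 and 9 with the filter at 6 and 9 arrays (0.462% and 1.16%) and 13 with only these 2 groups in the fit (2.22%). The median was -0.64 with the 9-array filter, -0.56 with 1 probe a gene and -0.60 to -0.28 with single arrays left out. In Cy5, 33 fell with all spots kept (2.32% of all), 37 with marked spots kept (2.49%), 9 without a filter (0.991%), 32 with the 9-array filter (4.41%, median -0.86), 0 with a slide block and 0 to 27 with single arrays left out (median -0.74 to -0.45). Keeping marked spots, with and without the array of mouse 833 or the mouse block, was chosen after seeing the data.

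With mouse as a replicate block 77 probes rose against day 10 blood in the log ratio, and 22 fell between the bloods in Cy5. Without the block these counts were 76 and 21, beside 35.8% and 2.28% of all probes. The shares of all probes with the block are not given here. The block ended no call of a named gene and added that of Rpl8 against day 10 blood. Day 10 blood was dimmest, so that probes near background there have only bounds.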
